A study of Mus musculus with 6 samples.

Results

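The ribosomal protein genes of the mouse were examined for open chromatin at their ends, as a set of constitutively used promoters, in neural progenitors that carried a control virus or a virus for Nr6a1. Genes were taken as members by their symbol: Rpl or Rps with a number, with Rplp0, Rplp1, Rplp2 and Rpsa added and the Rps6k kinases left out. An accessible interval belonged to such a gene when its midpoint lay within 1 kb of either end of the gene. This gave 82 of the 52223 consensus intervals in the table, at 74 of 81 genes. At 9 genes 2 intervals met the rule, and 1 interval was shared by 2 of the genes. All 82 intervals passed the filter on low counts.

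The cells were mouse embryonic stem cells differentiated to neural progenitors. They were grown with 10 ng/ml bFGF. CHIR99021, which inhibits GSK3, was added at 5 µM on day 2, and retinoic acid (100 nM) with Smoothened agonist (10 nM) on day 3. After day 5 the medium held the agonist without retinoic acid. On day 5 the cultures received lentivirus that carried either mScarlet3, a red fluorescent protein (the mScarlet group), or Nr6a1 joined to mScarlet3 by a 2A peptide (the Nr6a1OE group). Both groups were sorted for red fluorescence on day 9, and 50000 cells went into each library, so every value comes from transduced, fluorescent cells. The promoter that drives the transgene is not given in the sources used here, and the amount of Nr6a1 made from the virus is not measured by this assay. The labels give 3 libraries per group and do not say whether these came from separate cultures. The p-values, and the confidence intervals of the differences, therefore measure only the spread between these libraries. This spread was small. Between libraries of a group, squared differences were 1.05 to 1.10 times those that random counting gives. Between libraries of different groups they were 1.27 to 1.44 times as large as those of random counting. The p-values and confidence intervals may be too narrow for a comparison of separate cultures, which was not tested.

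Libraries held 6857763 to 8030029 fragments in intervals. The labelled cell type was checked on marker genes: 11 of 11 neural progenitor genes, Sox1, Sox2, Nes and Pax6 among them, had an interval at a gene end, with a summed level of 801 to 836 CPM (fragment counts scaled to the library's TMM-adjusted size) in mScarlet and 810 to 827 in Nr6a1OE libraries. Of the pluripotency markers 1 of 5 had one (Esrrb, 3.02 CPM in mScarlet and 3.63 in Nr6a1OE), with none at Pou5f1 or Nanog. Neuron markers had an interval at 3 of 5 genes, with summed levels of 167 to 176 and 160 to 172 CPM. Endothelium and blood markers had one at 2 of 5 genes (Kdr at 40.8 and Tal1 at 42.1 CPM in mScarlet), neural crest markers at 2 of 3 (Foxd3 at 37.6 and Sox10 at 8.92) and endoderm markers at 1 of 3 (Sox17 at 10.5). Kdr, Tal1 and Foxd3 stood above the progenitor markers Pax6 (27.3), Fabp7 (26.2) and Msi1 (12.3), and Pecam1, Cdh5, Gata1, Tfap2a, Foxa1 and Gata4 had no interval. No marker interval of any of these lists was called by edgeR or DESeq2, with 0 at an unadjusted p under 0.05.

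Each ribosomal protein gene encodes one protein of the cytoplasmic ribosome, in its large subunit (Rpl) or its small subunit (Rps). Their products are needed in matched amounts, and the genes are among the most strongly transcribed in growing cells. Many of their mRNAs begin with a run of pyrimidines, the 5′ terminal oligopyrimidine tract, through which mTOR signalling controls their translation. Nr6a1, also called GCNF, is an orphan nuclear receptor known as a repressor of pluripotency genes such as Pou5f1. It binds direct repeats of the core AGGTCA and the extended core TCAAGGTCA.

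The sequences around the listed starts of 6 genes are shown because a pyrimidine run near the start was frequent in the set. Rpl13a and Rplp0 had the highest mScarlet levels per kb of interval and Rps4x the lowest. Rps26 and Rpl34 had the highest and lowest fold changes at a gene's main interval, and Rps6 is a gene of the S6 kinase pathway. Each runs 5′ to 3′ on the gene's strand from 50 bases before the listed start over the first 25 bases of the listed transcript. The sequences are from RefSeq (GRCm38.p6), and capitals mark the longest pyrimidine run. The starts are those that RefSeq lists, and the starts used in these cells were not measured.
Rpl34: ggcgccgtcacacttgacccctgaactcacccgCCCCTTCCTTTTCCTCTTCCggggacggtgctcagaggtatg
Rpl13a: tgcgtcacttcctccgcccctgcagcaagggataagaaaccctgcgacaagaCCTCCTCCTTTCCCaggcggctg
Rps26: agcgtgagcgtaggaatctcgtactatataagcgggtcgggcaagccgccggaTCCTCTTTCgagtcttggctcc
Rps6: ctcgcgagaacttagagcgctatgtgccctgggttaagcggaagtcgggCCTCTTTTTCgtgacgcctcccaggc
Rplp0: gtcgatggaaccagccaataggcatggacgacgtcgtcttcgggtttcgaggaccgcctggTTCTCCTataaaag
Rps4x: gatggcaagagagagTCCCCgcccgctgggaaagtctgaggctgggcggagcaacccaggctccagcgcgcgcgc
They lie at chr3:130730313-130730387 (minus strand, Rpl34), chr7:45128721-45128795 (minus strand, Rpl13a), chr10:128626482-128626556 (minus strand, Rps26), chr4:86857343-86857417 (minus strand, Rps6), chr5:115559417-115559491 (plus strand, Rplp0) and chrX:102189367-102189441 (minus strand, Rps4x). The run was 20 bases at Rpl34, beginning 17 bases before the listed start, and 14 bases at Rpl13a, beginning at base 3 of the listed transcript. At Rps26 it was 9 bases and at Rps6 10 bases, the latter spanning the start. It was 7 bases at Rplp0 and 5 at Rps4x, where it lay 35 bases before the start. At Rplp0 the letters TATAAA begin at the last base of the run, after the listed start. The place of this run relative to the start in use is therefore uncertain.

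A RefSeq promoter window with its start at one of the intervals was found for 51 of the genes, and in all 51 the start itself lay inside an interval. A pyrimidine run of at least 8 bases lay within 25 bases of the start in 26 of the 51 windows (51.0%), against 18.6% of the 15394 other windows that start in an interval and 19.7% of all 32851 windows. The base at the listed start was a pyrimidine in 25 of 51 (49.0%), against 25.7% of the other windows in intervals. Both shares depend on where RefSeq places the start. The windows of ribosomal protein genes were less rich in G and C, with a median of 57.7% against 62.0%, and held more CpG relative to their base content, with a median ratio of observed to expected of 0.870 against 0.759. These shares are descriptions, since the windows of a gene family are not independent draws.

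The element TCTCGCGA, searched on both strands, was also more frequent than in the other windows in intervals. It was present in 10 of 51 windows (19.6%), against 1.92% of the other windows in intervals and 0.995% of all windows. It lay before or across the listed start in all 10, with its first base at positions -189 to -1 from it. In 6 of them it was extended to the 10-base palindrome. The element is shown in capitals with 15 bases on each side for 6 of the 10 genes, the 5 with the palindrome closest to the start and Rpl27a with the 8-base form.
Rpl10a: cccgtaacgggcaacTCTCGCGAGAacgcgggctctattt
Rpl26: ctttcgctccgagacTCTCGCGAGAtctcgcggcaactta
Rps6: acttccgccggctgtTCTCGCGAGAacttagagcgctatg
Rps19: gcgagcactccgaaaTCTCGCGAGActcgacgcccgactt
Rps28: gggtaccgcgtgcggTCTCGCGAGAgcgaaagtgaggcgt
Rpl27a: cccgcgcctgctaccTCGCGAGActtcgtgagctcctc
They lie at chr17:28328519-28328558 (plus strand, Rpl10a), chr11:68901525-68901564 (plus strand, Rpl26), chr4:86857394-86857433 (minus strand, Rps6), chr7:24884569-24884608 (plus strand, Rps19), chr17:33824539-33824578 (minus strand, Rps28) and chr7:109519159-109519196 (plus strand, Rpl27a). The other 4 genes with the element were Rpl12, Rpl35, Rpl7a and Rps15a. Intervals of the 10 genes had log2 fold changes of -0.15 to 0.05 between Nr6a1OE and mScarlet, and a median level of 39.6 CPM per kb, against 33.6 for the windows without the element.

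Among the other motifs, the ETS core CCGGAAGT was found in 9 of 51 windows (17.6%, against 7.22% of the other windows in intervals) and the pyrimidine tract CTCTTTCC in 8 (15.7%, against 2.98%). The NFY box CCAAT was found in 35.3% against 36.9%, the NRF1 motif GCGCNTGCG in 11.8% against 12.6%, the E-box CACGTG in 7.84% against 9.82%, and the SP and KLF box GGGCGG in 56.9% against 65.2%. YY1 letters (AAGATGGCG) occurred in 5.88% against 2.62%, CREB letters (TGACGTCA) in 7.84% against 3.07%, and the TATA box (TATAAA) in 7.84% against 6.29%. The nuclear receptor core AGGTCA was in 4 of 51 windows (7.84%: Rpl24, Rpl35a, Rps3 and Rps4x), against 11.2% of the other windows in intervals and 16.3% of all windows. The extended core TCAAGGTCA, which contains it, was in 0 of 51, against 0.201% and 0.423%. All motifs were searched on both strands, and a match says only that the letters are there. Intervals at the 4 genes with the core had log2 fold changes of -0.05 to 0.02.

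**Figure D1:**
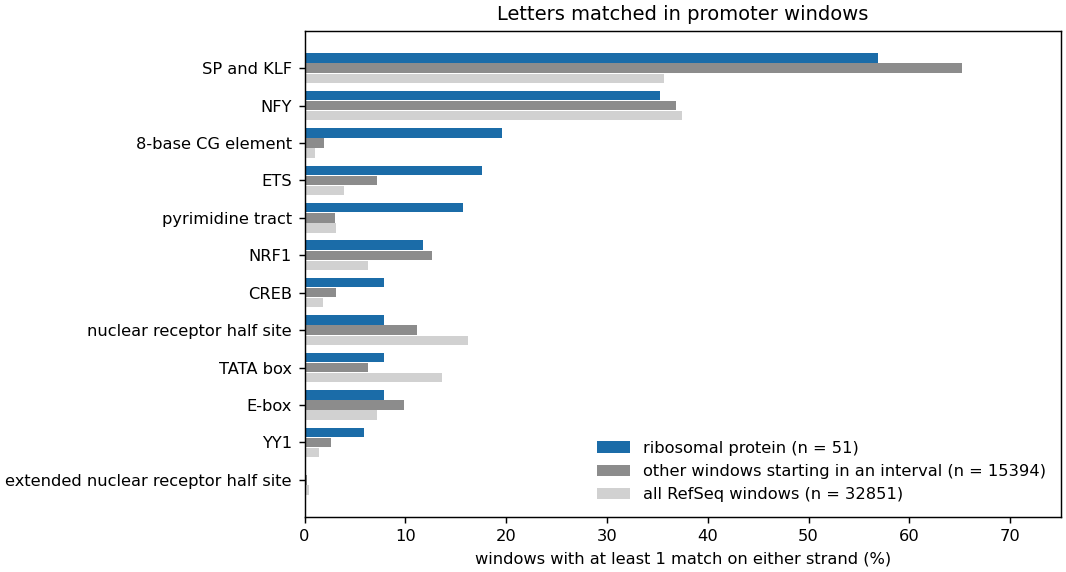
Share of promoter windows of 300 bases with at least 1 match to each motif on either strand (x axis, percent), for 51 ribosomal protein genes (blue), 15394 other windows whose start lies in an interval (dark grey) and all 32851 windows (light grey). The element of 8 bases with CG pairs, in either the plain or the extended form, stands at 19.6% in the ribosomal protein windows and 1.92% in the other windows in intervals, while NFY and NRF1 shares lie close together.

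The ribosomal protein intervals are accessible by selection, since only consensus intervals could be members, and each held fragments in all 6 libraries. In mScarlet cells their median level per length was 34.9 CPM per kb of interval (quartiles 29.2 and 44.3), beside 30.6 (14.9 and 44.0) for the 12513 other gene-end intervals tested. The lower quartiles were 29.2 and 14.9, so the ribosomal protein intervals had few weak ones. Some similar gene groups shared this, with lower quartiles of 30.7 for elongation and initiation factors and 31.4 for ribosome-associated factors. Those of ribosome assembly and housekeeping genes were 28.2 and 29.1. These groups had higher medians, in this order, of 39.2, 38.4, 42.0 and 40.1 CPM per kb. Lower quartiles were 27.3 for RNA polymerase I, 24.2 for the mitochondrial ribosome and 24.1 for the proteasome, with medians of 29.5, 34.2 and 35.9. For regulators of ribosomal protein genes the lower quartile was 5.65 and the median 40.2. Of the 82, 56 lay above the median of gene-end intervals and 10 in their top decile. The intervals had a median length of 1206.5 bp (665 to 2969 bp).

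Levels are given for the interval that stands for a gene, the one with most fragments where there are 2. The highest was that of Rpl13a, a large subunit protein that also takes part in interferon-induced translational silencing, at 98.9 ± 5.30 CPM per kb in mScarlet (SD, n = 3). Other high levels were those of Rplp0, the base of the ribosomal stalk, at 78.1 ± 4.47, Rpl18, through an interval away from its listed start, at 67.3 ± 1.19 and Rps25 at 67.3 ± 3.69. Rpl18 and Rps25 did not differ beyond their spread, and Rps19, mutated in Diamond-Blackfan anaemia, lay beside them at 65.7 ± 5.40. This order depends on interval length. Rpl13a has the shortest interval of the set (665 bp), and those of Rplp0 (714 bp) and Rpl18 (750 bp) are also short. In CPM not scaled by length, Rpl13a held 65.8 ± 3.53 in mScarlet, below Rps19 (96.8 ± 7.96) and Rps25 (76.9 ± 4.22). The lowest level per kb was that of Rps4x, the X-linked copy of a small subunit protein, at 17.7 ± 0.254 CPM per kb. Above it came Rpl6 at 20.4 ± 0.637, Rpl39, at the peptide exit tunnel, at 21.1 ± 1.82, Rpl36a at 22.2 ± 2.75, and Rps15a at 23.8 ± 2.00. Neighbours in the order of these last 4 did not differ beyond their spread. Rps4x, Rpl39 and Rpl36a are on the X chromosome, as is Rpl10, at 29.4 ± 2.48.

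**Figure D2:**
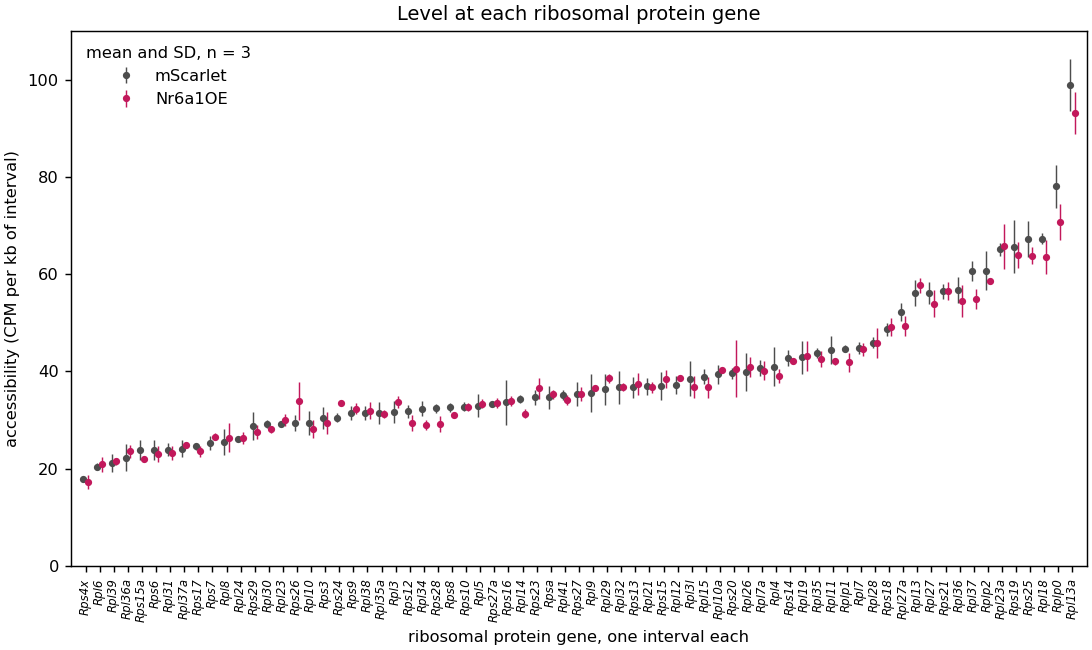
Accessibility per kb of interval (y axis, CPM per kb, mean and SD of 3 libraries) at 71 of the 74 ribosomal protein genes with an interval, ordered by the mScarlet mean, in mScarlet (grey) and Nr6a1OE (red) cells. Levels run from 17.7 at Rps4x to 98.9 at Rpl13a. The means of both groups differ by more than the mScarlet SD at some genes, such as Rplp0 (78.1 and 70.7), Rpl37 (60.7 and 54.9) and Rps26 (29.3 and 33.8).

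Between Nr6a1OE and mScarlet, the summed level of the ribosomal protein gene ends differed by less than the spread between mScarlet libraries, and no single interval passed the test. Summed over the 82 intervals, they held 3836, 3709 and 3846 CPM in the 3 mScarlet libraries and 3747, 3767 and 3771 CPM in the 3 Nr6a1OE libraries. The Nr6a1OE values lay within the range of the mScarlet values. The means were 3797 ± 76.8 and 3762 ± 13.2 CPM (SD, n = 3 each), a ratio of 0.991. Their share of all interval fragments was 0.371% to 0.383% in every library.

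No ribosomal protein interval was called by edgeR in either direction, out of 82 tested, where 1.73% of all 51637 intervals and 0.619% of the 12595 gene-end intervals were called. A count of 0 among 82 is near the latter share. DESeq2 also called 0, but it called only 2 of the 12513 other gene-end intervals and 100 of all 51637. Its count of 0 therefore adds little here or in the gene groups below. At an unadjusted edgeR p under 0.05, 8 of 82 (9.76%) differed, beside 12.6% of all intervals and 9.3% of gene-end intervals. In 3 (3.66%) the Nr6a1OE level was higher, beside 4.42% of gene-end intervals, and in 5 (6.10%) it was lower, beside 4.87%. The groups did not overlap in CPM at 10 intervals (12.2%), beside 16.6% of all and 13.8% of gene-end intervals. These were higher in Nr6a1OE at 3 (3.66%, beside 6.56%) and lower at 7 (8.54%, beside 7.27%). Each of these shares is near that of gene ends in general.

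The log2 fold changes had a median of 0.0011 (quartiles -0.06 and 0.04), with 42 estimates above 0 and 40 below. The median was -0.0041 (quartiles -0.06 and 0.06) over the other gene-end intervals and 0.0038 over all intervals. The 95% interval of the difference lay within 0.3 of 0 on the log2 scale (1.23-fold) at 77 of the 82, and within 0.5 (1.41-fold) at 81. It held 0 at 74. Beyond 0.3 reached Rps26 and the weaker intervals of Rpl19, Rps10, Rps19 and Rps3, the last to 0.73. An adjusted p above the threshold does not show that the groups were equal, and these confidence intervals give the size of change that the libraries leave possible. They rest on the spread between these libraries, which may be smaller than that between separate cultures.

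**Figure D3:**
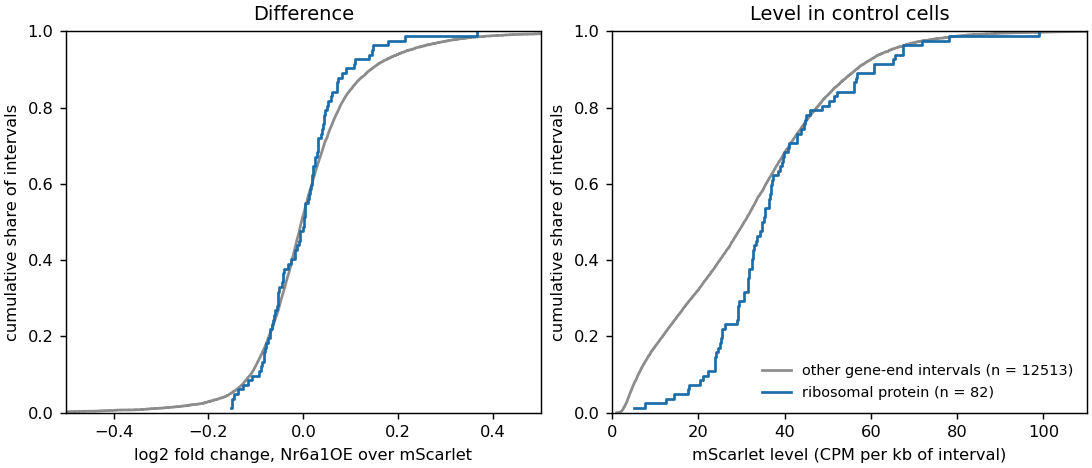
Cumulative share of intervals (y axis) by log2 fold change of Nr6a1OE over mScarlet (left) and by mScarlet level in CPM per kb (right), for 82 ribosomal protein intervals (blue) and 12513 other gene-end intervals (grey), drawn between -0.5 and 0.5 and between 0 and 110. The curves cross 0 at nearly the same share on the left, with medians of 0.0011 and -0.0041, and on the right the ribosomal protein intervals have few low levels.

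In the large subunit, 0 of 44 intervals were called by edgeR or DESeq2, with 2 (4.55%) at an unadjusted p under 0.05, both lower, beside 9.3% of gene-end intervals, and a median log2 fold change of 0.0015. The lowest estimate was at Rpl34 (chr3:130729487-130730909), the gene with the 20-base pyrimidine run. Its values were 44.1, 48.4 and 45.5 CPM in mScarlet and 42.9, 40.0 and 41.1 in Nr6a1OE, so the groups did not overlap. The log2 fold change was -0.15 (SE 0.068, adjusted p = 0.30). Rpl37 (chr15:5115863-5117105), a zinc-binding protein, has an interval whose midpoint also lies within 1 kb of an end of Card6. It held 77.1, 72.4 and 76.7 CPM against 67.0, 71.1 and 66.6, with a log2 fold change of -0.15 (SE 0.053, adjusted p = 0.151). All 3 Nr6a1OE values lay below all 3 mScarlet values. At the upper end of the intervals that stand for a gene, Rpl3, at the peptidyl transferase centre, held 48.7, 45.0 and 51.8 CPM in mScarlet and 51.0, 50.3 and 54.0 in Nr6a1OE (0.09, adjusted p = 0.593). Rpl29 held 44.6, 37.4 and 41.6 against 43.9, 44.8 and 42.6 CPM (0.08, adjusted p = 0.676). The groups overlapped at both. Higher large subunit estimates stood at the weaker second intervals of Rpl19 (0.15) and Rpl4 (0.11, at its listed start), neither of them called by edgeR or DESeq2.

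None of the large subunit genes named for roles outside bulk synthesis was called by edgeR or DESeq2, and at each the unadjusted p was above 0.05. Rpl5 and Rpl11, which with 5S ribosomal RNA bind Mdm2 when ribosome assembly is disturbed, held 39.8 ± 2.93 and 49.9 ± 3.22 CPM in mScarlet and 40.2 ± 1.09 and 47.3 ± 0.749 in Nr6a1OE (SD, n = 3 each). Their log2 fold changes were 0.01 and -0.08. Rpl38, whose loss in the mouse alters the axial skeleton and the translation of Hox mRNAs, held 47.9, 52.3 and 50.5 CPM in mScarlet and 48.4, 50.4 and 53.9 in Nr6a1OE, with a log2 fold change of 0.02 and a 95% interval of -0.10 to 0.15. The groups overlapped, and the estimate was -0.03 once the median of chromosome 11 was removed. Rpl26 (44.3 ± 4.26 against 45.5 ± 2.24 CPM), Rpl23 (42.4 ± 0.838 against 43.6 ± 1.81), Rpl10, which takes part in the last steps of subunit maturation (46.7 ± 3.94 against 44.7 ± 3.04), and Rpl13a (65.8 ± 3.53 against 62.0 ± 2.84) had estimates of 0.03, 0.04, -0.07 and -0.09. At Rpl26 and Rpl23 the sign turned to -0.03 and -0.02 with chromosome medians removed.

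In the small subunit, 0 of 34 intervals were called by edgeR or DESeq2. At an unadjusted p under 0.05 there were 5 (14.7%, 3 higher and 2 lower), beside 12.6% of all and 9.3% of gene-end intervals, with a median log2 fold change of 0.0038. Rps26 (chr10:128626046-128627250), which lines the channel where mRNA leaves the ribosome, had the lowest adjusted p of all 82. It held 33.5, 37.4 and 34.8 CPM in mScarlet and 35.4, 43.7 and 43.3 in Nr6a1OE, with means of 35.3 ± 1.99 and 40.8 ± 4.68 (SD, n = 3 each). Nr6a1OE libraries 2 and 3 lay above all mScarlet libraries and library 1 lay among them. The log2 fold change was 0.21 (SE 0.072, adjusted p = 0.107). Without the first Nr6a1OE library it was 0.30 with an adjusted p of 0.0209, the one setting in which a ribosomal protein interval was called. Over the other settings its adjusted p ran from 0.0808 to 1.00.

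Rps24 (chr14:24490355-24491448), another gene of Diamond-Blackfan anaemia, held 33.7, 34.1 and 32.2 CPM in mScarlet and 36.2, 36.5 and 37.2 in Nr6a1OE (0.14, SE 0.075, adjusted p = 0.444). The groups did not overlap, and the interval was not called. At the lower end was Rps28 (chr17:33823957-33825113), whose interval midpoint also lies within 1 kb of an end of Ndufa7. It held 38.6, 36.6 and 37.2 CPM in mScarlet and 35.1, 34.8 and 31.7 in Nr6a1OE (-0.15, SE 0.075, adjusted p = 0.377). Here too the groups did not overlap and the difference was not called.

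**Figure D4:**
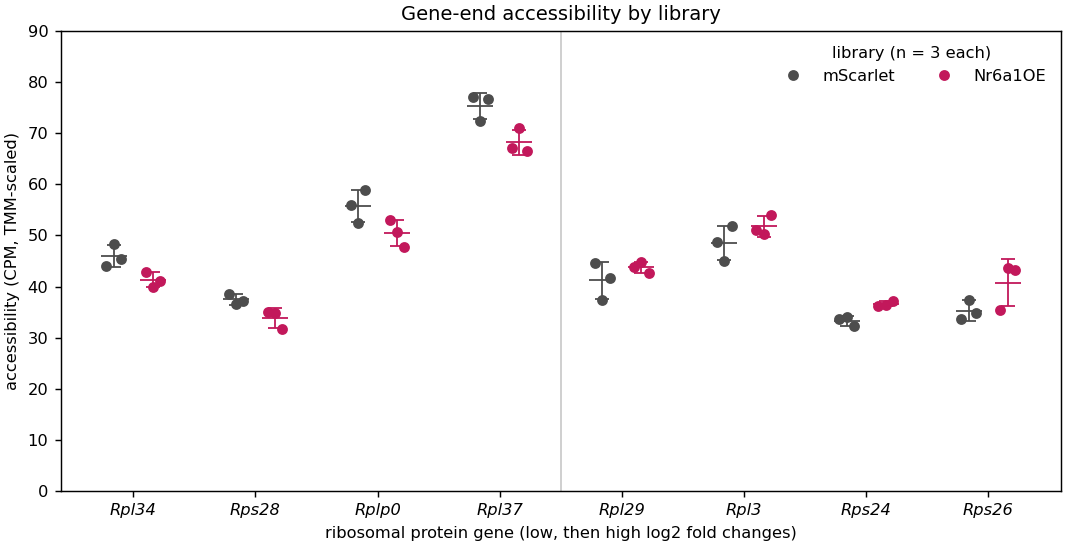
Accessibility in each library (points, y axis, CPM), with the mean and SD of 3 libraries (bars), for ribosomal protein genes with log2 fold changes at the low end (left of the line) and the high end (right of it), in mScarlet (grey) and Nr6a1OE (red) cells. The groups do not overlap at Rpl34, Rps28, Rpl37 and Rps24, and overlap at Rplp0, Rpl29, Rpl3 and Rps26.

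The small subunit genes named by role were closer to 0. Rps6, the substrate of the S6 kinases, held 32.7, 33.2 and 38.3 CPM in mScarlet and 31.0, 35.5 and 34.3 in Nr6a1OE (-0.05). Rps3, at the mRNA entry channel, held 47.5, 41.1 and 43.3 against 38.9, 45.2 and 43.0 CPM (-0.05). Rps19 held 96.8 ± 7.96 and 94.3 ± 3.95 CPM (-0.05), and Rps14 51.5 ± 2.06 and 50.7 ± 0.597 (-0.03). The groups overlapped at each. Rpsa, also described as a laminin receptor, held 41.2 ± 2.85 and 41.9 ± 1.08 CPM (0.02). Rps27a, translated as a fusion with ubiquitin, held 46.2 ± 0.503 and 46.5 ± 1.37 (0.01, and -0.05 with chromosome medians removed). Rps4x, with the lowest level, held 17.7, 17.5 and 18.0 against 16.6, 16.1 and 18.8 CPM (-0.04, 95% interval -0.25 to 0.17).

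The stalk proteins Rplp0, Rplp1 and Rplp2 form the protrusion of the large subunit that recruits elongation factors. All 3 estimates were below 0 and 0 of 3 were called by edgeR or DESeq2. At an unadjusted p under 0.05 there was 1 (33.3%), beside 12.6% of all and 9.3% of gene-end intervals. A set of 3 intervals is too small to compare with these shares. Rplp0 (chr5:115559241-115559954) held 56.0, 52.5 and 58.8 CPM in mScarlet and 53.0, 50.7 and 47.8 in Nr6a1OE, with a log2 fold change of -0.15 (SE 0.062, adjusted p = 0.240). The first Nr6a1OE library lay above the second mScarlet library. Rplp1 held 47.4, 47.1 and 48.6 against 45.6, 42.2 and 46.2 CPM (-0.09, adjusted p = 0.599), with no overlap, and Rplp2 60.5, 53.3 and 58.7 against 56.1, 55.5 and 55.1 (-0.05, adjusted p = 0.788), with overlap.

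**Figure D5:**
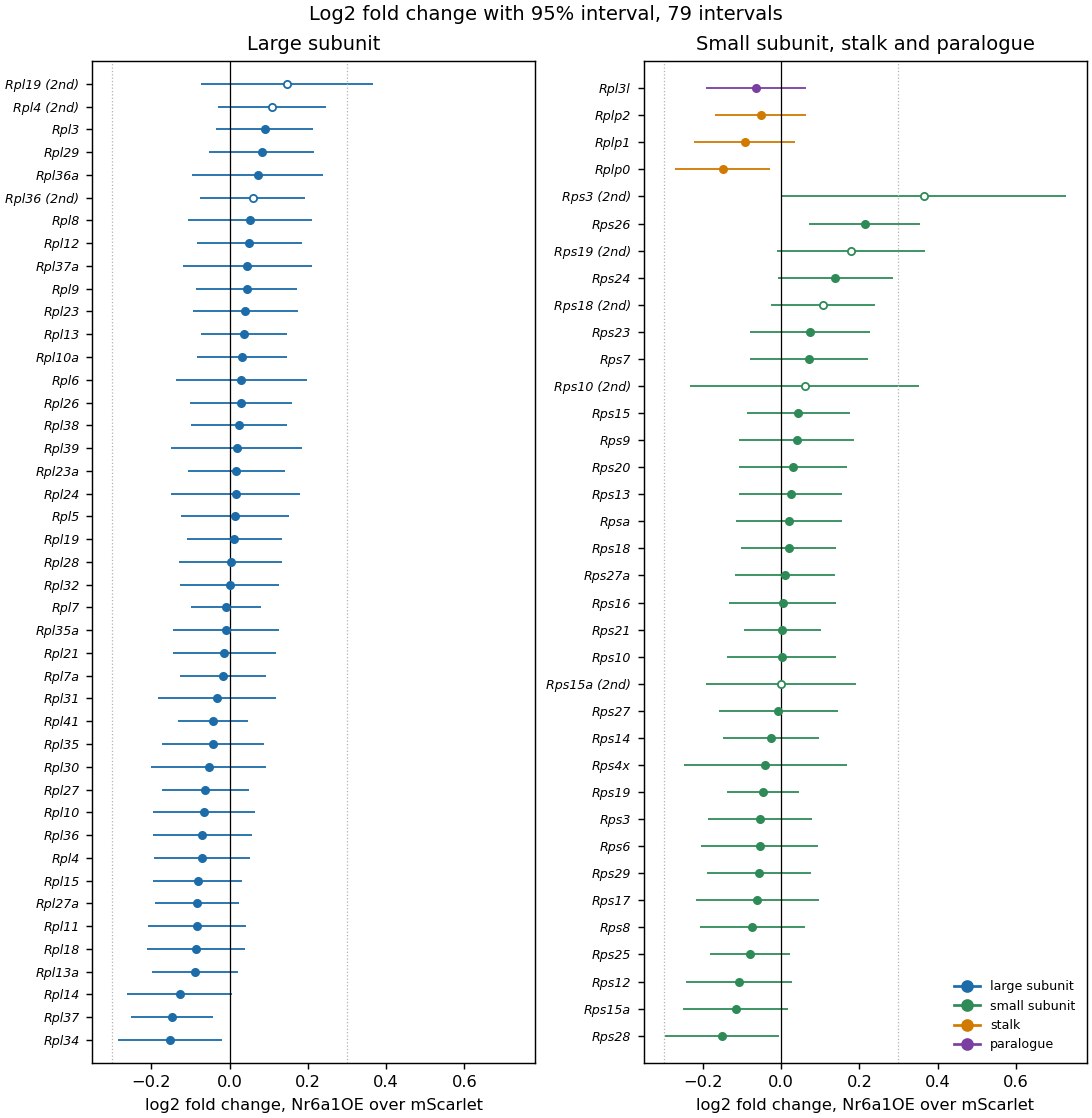
Log2 fold change of Nr6a1OE over mScarlet (x axis, points) with its 95% interval (lines) at 79 of the 82 intervals, by role, open points being the second interval of a gene and dotted lines marking 0.3 on either side of 0. Most of the lines cross 0, and the widest belong to second intervals.

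Of the 5 paralogues that the symbol rule takes in, 1 had an interval at a gene end. The rule leaves out symbols such as Rps3a1, Rpl36al, Rpl22l1 and Rpl7l1, so nothing is said here of their ends. With a wider set of symbols 87 intervals met the rule, and 0 were called by edgeR in either direction. Rpl3l, the form of Rpl3 used in striated muscle, met the rule through an interval (chr17:24736154-24737419) away from its listed start. The midpoint of this interval also lies within 1 kb of an end of Msrb1. It held 48.7 ± 4.60 CPM in mScarlet and 46.6 ± 2.83 in Nr6a1OE (-0.06, not called by edgeR or DESeq2). For Rpl10l, known from the testis, the nearest interval midpoint was 55.0 kb from the gene, and for Rpl39l 18.1 kb. Rps27l had an interval inside the gene, with its midpoint 1.44 kb from the nearer end, at 61.7 ± 2.39 and 61.7 ± 1.11 CPM. Rps4l is not in the gene table used here.

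The other genes without an interval under the rule were Rpl22, Rps2, Rpl17 and Rpl32l. The nearest midpoint lay 1.04 kb from an end at Rpl22, a large subunit protein that also acts in T cell development, where the interval held 9.71 ± 0.742 CPM in mScarlet and 10.6 ± 1.00 in Nr6a1OE. At Rps2 it lay 1.87 kb away (61.2 ± 3.45 and 60.5 ± 1.66 CPM), at Rpl17 1.60 kb (28.8 ± 1.26 and 27.9 ± 1.19) and at Rpl32l 3.22 kb (14.2 ± 0.670 and 15.2 ± 2.70). The intervals at Rpl22, Rps27l, Rps2 and Rpl17 lay inside the genes, past the 1 kb limit. None of these nearest intervals was called by edgeR.

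The rule takes both ends of a gene, and the intervals were not alike in this. A listed start lay near 51 of the 82, and 11 lay away from one, while for 20 the promoter table gave no strand. The 8 second intervals of a gene were weaker than the 74 others, with a median of 15.9 against 35.9 CPM per kb. Their median log2 fold change was 0.11 against -0.0085. Estimates over all intervals, with a median of 7.88 CPM per kb, had quartiles of -0.11 and 0.12. Whether second intervals differ from other weak intervals was not tested. The largest estimate of the 8 was at Rps3 (chr7:99476407-99477399), away from its listed start. There 5.34, 5.54 and 4.12 CPM in mScarlet stood against 5.54, 7.77 and 5.93 in Nr6a1OE (0.37, SE 0.19, adjusted p = 0.393). Its lowest Nr6a1OE value and highest mScarlet value were nearly equal. At Rps19 the second interval held 20.1, 21.9 and 18.4 against 23.7, 21.2 and 23.1 CPM (0.18, adjusted p = 0.438), and the groups overlapped. Another protein-coding gene had an end within 1 kb of 21 of the intervals, such as Trappc4 at Rps25, Nkiras1 at Rpl15, Med22 at Rpl7a and Lias at Rpl9. Their median log2 fold change was -0.0091, against 0.0034 for the 61 without.

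The members lie on 19 chromosomes, with 17 intervals on chromosome 7 (median log2 fold change -0.05), 8 on chromosome 11 (0.02) and 1 on chromosome 6 (Rpl32, 0.00058). The median over all tested intervals of a chromosome was 0.058 on chromosome 11 and -0.031 on chromosome 6. With the median of each chromosome removed, the 8 on chromosome 11 had a median of -0.04 and Rpl32 stood at 0.032. The 40 genes not named by the rule had log2 fold changes of -0.13 to 0.07 and mScarlet levels of 23.9 to 65.1 CPM per kb at the interval with most fragments.

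Other gene groups of protein synthesis and turnover are read against the gene-end intervals, of which 0.619% were called and 9.3% had an unadjusted p under 0.05. The mitochondrial ribosome had 0 of 80 intervals called by edgeR or DESeq2, and 4 (5.00%) at an unadjusted p under 0.05, all lower. Its median log2 fold change was 0.0013, and the estimates ran from -0.57 to 0.17. Genes of ribosome assembly had 0 of 38 called, 3 (7.89%) at an unadjusted p under 0.05, 2 higher and 1 lower, and a median of 0.0046. RNA polymerase I, which transcribes ribosomal RNA, had 0 of 11 called by either tool, 0 at an unadjusted p under 0.05 and a median of -0.02. The translation elongation and initiation factors had 0 of 39 called, with 2 (5.13%) at an unadjusted p under 0.05, both higher. Their median was -0.01, with estimates of -0.15 to 0.37. Ribosome-associated factors had 0 of 15 called, 1 (6.67%) at an unadjusted p under 0.05, which was lower, and a median of -0.03. The proteasome had 0 of 38 called and 4 (10.5%) at an unadjusted p under 0.05, 1 higher and 3 lower. Its median was 0.0049, with estimates of -0.57 to 0.14. Housekeeping genes had 0 of 22 called, 3 (13.6%) at an unadjusted p under 0.05, 1 higher and 2 lower, and a median of -0.02. The counts of 0 called hold for edgeR and for DESeq2.

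Among 11 genes for regulators of ribosomal protein genes, 1 of 13 intervals (7.69%) was called, beside 1.73% of all and 0.619% of gene-end intervals, and it was lower. It lies at Sp1 (chr15:102405240-102406795), the factor of GC boxes, with 168, 155 and 170.0 CPM in mScarlet and 157, 146 and 149 in Nr6a1OE. The first Nr6a1OE library lay above the second mScarlet library. The means were 164 ± 8.15 and 150.3 ± 5.67 CPM (SD, n = 3 each), and the log2 fold change was -0.13 (SE 0.038, edgeR adjusted p = 0.0307). The call was lost without Nr6a1OE library 2 or 3 (adjusted p = 0.221 and 0.158) and without mScarlet library 1 or 3 (0.198 and 0.269), and DESeq2 gave an adjusted p of 0.837. The GC box share of the ribosomal protein windows is given above, and its relation to this interval was not tested.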

How the data were processed

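ATAC-seq fragments were measured in 6 libraries, 3 per group. The authors deposited one table of raw counts of fragments over 52223 consensus intervals. Per the file headers, counts came from featureCounts 2.0.1, which counted read pairs, let a fragment count in every interval it met, and set a minimum overlap fraction of 0.2. The build is mm10, per the submitters' processing notes. No source used here gives the aligner, peak caller, duplicate handling or any shift for the Tn5 cut. Because the intervals were already called, a gene end without an interval has no value.

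Genes and their ends came from RefSeq (GRCm38.p6, the assembly behind mm10). The low-count filter of edgeR removed 586 intervals and left 51637. TMM factors scaled the library sizes, and Nr6a1OE was compared with mScarlet with edgeR 4.0.16 (glmQLFit and glmQLFTest in R 4.3.3, no covariate), with Benjamini-Hochberg adjustment over all intervals tested. An interval was called at an adjusted p under 0.05. The fit was tested on simulated data. Promoter sequences were the RefSeq windows of 250 bases before to 50 bases after each listed start. For 51 of the ribosomal protein genes the window lay at an interval analysed here. Shares of windows with a motif are descriptions, and no test was run on them.

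Named genes were those called, the 5 highest and 5 lowest log2 fold changes, the 5 highest and 5 lowest levels per kb, and a list by role. Values of 3 of these genes are not reported here, and counts over the set include them. The genes and lists were chosen with earlier results of these data known. The alternatives tried were DESeq2 1.42.0, other scalings, chromosome medians removed, no filter, an assumed coefficient of variation and a replicate block. Others left out each library, summed Nr6a1OE libraries 1 and 3, or used other rules for which intervals count as ribosomal protein gene ends.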

Additional observations from a re-analysis of the deposited data

How the results depend on the processing

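No ribosomal protein interval was called lower under any of the alternatives run. The count called higher was 0 in all of them except without the first Nr6a1OE library, where it was 1 (Rps26), so the range on leaving out single libraries was 0 to 1. Over all intervals, 242 were called higher and 652 lower. DESeq2 called 3 higher and 97 lower, and an assumed coefficient of variation of 10% gave 19 and 205. Leaving out single libraries gave 98 to 190 higher and 395 to 544 lower. A fit with the replicate number as a block called 224 higher and 617 lower, and 0 ribosomal protein intervals in either direction. Deviations from the group means correlated at 0.032, -0.025 and -0.030 between libraries of the same number. These values cannot decide whether equal numbers mark paired libraries. Between libraries of a group, squared differences were only 1.05 to 1.10 times those that random counting gives. Little spread was therefore left in which a pairing could show.

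The median log2 fold change of the ribosomal protein intervals was 0.0011. It was -0.013 with chromosome medians removed, -0.0091 with midpoints within 500 bp of a gene end, and -0.020 to 0.011 on leaving out single libraries. The ratio of summed CPM, 0.991, was 0.995 with library totals only, 0.987 with midpoints within 500 bp, 0.987 with intervals near a listed start only, and 0.979 to 0.997 on leaving out single libraries.

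For the 31 named genes, 441 of 465 values in 15 settings kept their sign and their side of the threshold. In 1 case, Rps26, the interval became called (0.30). In 23 the sign turned. Removing chromosome medians gave -0.018 at Rpl23, -0.029 at Rpl26, -0.034 at Rpl38 and -0.048 at Rps27a. The other 19 came from leaving out single libraries, over these ranges: Rpl26 -0.017 to 0.12, Rpl36a -0.0015 to 0.19, Rpl38 -0.021 to 0.058, Rpl39 -0.047 to 0.070, Rpl3l -0.12 to 0.0033, Rpl5 -0.035 to 0.067, Rpl6 -0.014 to 0.088, Rps19 -0.088 to 0.031, Rps27a -0.0059 to 0.034, Rps3 -0.099 to 0.0048, Rps4x -0.11 to 0.0045, Rps6 -0.097 to 0.031 and Rpsa -0.032 to 0.073. The cause of these changes was not tested. At a median of 322 fragments per interval, the depth leaves a median standard error of 0.068 on the log2 scale.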
